A study of Mus musculus with 7 samples.

Results

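The genes described here are 10 genes of the cellular response to low oxygen: the hypoxia-inducible factor (HIF) subunits *Hif1a* and *Epas1*, the prolyl hydroxylases *Egln1* and *Egln3*, and the HIF targets *Vegfa*, *Slc2a1*, *Pgk1*, *Ldha*, *Car9*, and *Bnip3*. They were picked by name, as the rows of the gene count table that carry exactly these symbols, and make up 10 of its 55401 genes. All 10 passed the filter on low counts, more than 1 CPM (counts scaled to the size of the library) in at least 2 samples, along with 16429 genes in total. The samples came from an RNA-Seq comparison of WT and *Trpc1-/-* mice after destabilization of the medial meniscus (DMM), a knee operation that starts osteoarthritis, and asked how loss of the calcium channel TRPC1 alters the early joint response. By their labels, 4 samples were WT and 3 were *Trpc1-/-*, although the Methods give the numbers as 3 and 4, and the labels were used. All mice were C57BL/6J males operated on the right knee at 10 weeks of age and euthanized 2 weeks later, and none of the samples was from an unoperated or sham-operated knee. The *Trpc1-/-* mice carried the Trpc1tm1Lbi allele in every tissue, which lacks exon 8 and ends in an early stop codon. Each sample pooled 2 to 3 mice. The tissue is labeled as knee articular cartilage. The Methods list cartilage of the femoral head and tibia with subchondral bone beside it, while the paper's Results name cartilage of the femoral condyle and tibial plateau.

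HIF is a dimer of an oxygen-regulated alpha subunit and a stable beta subunit, ARNT. When oxygen is plentiful, prolyl hydroxylases of the EGLN family mark the alpha subunit for binding by VHL and breakdown; when oxygen is scarce, the alpha subunit builds up and the dimer binds hypoxia response elements in DNA and raises genes of glucose uptake, glycolysis, blood vessel growth, and mitochondrial turnover. Cartilage has no blood vessels, and its chondrocytes need HIF-1alpha for survival in the growth plate, while HIF-2alpha, the product of *Epas1*, has been tied to matrix-degrading enzymes in osteoarthritis. This control acts largely on the stability of the protein, which RNA counts do not measure.

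The core of the hypoxia response element reads ACGTG or, less often, GCGTG. Both were searched on both strands in RefSeq promoters, each 250 bases before to 50 after a start of transcription on GRCm38.p6. Of the 10 genes, 9 had a promoter in that set and *Epas1* had none. ACGTG lay in the most upstream promoter of 8 of these 9 genes and in 19.6% of all 32851 promoters, GCGTG in 32.4%, and either in 43.8%. Stretches from 7 of these promoters, with ACGTG or its reverse complement CACGT in capitals, are shown because they carry the letters that HIF is known to bind. Where both strands match at the same place, the capitals run together as CACGTG, a form that other factors bind as well. A match is a description of the sequence and not a site of binding.
Egln1, chr8:124949303-124949337, minus strand: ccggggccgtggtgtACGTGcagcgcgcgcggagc
Egln3, chr12:54204084-54204118, minus strand: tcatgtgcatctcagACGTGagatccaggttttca
Slc2a1, chr4:119108694-119108728, plus strand: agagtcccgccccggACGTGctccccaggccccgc
Pgk1, chrX:106186935-106186988, plus strand: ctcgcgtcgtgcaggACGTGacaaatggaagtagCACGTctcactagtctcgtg
Ldha, chr7:46845741-46845789, plus strand: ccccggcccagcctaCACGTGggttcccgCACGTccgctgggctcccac
Car9, chr4:43506993-43507027, plus strand: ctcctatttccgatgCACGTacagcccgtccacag
Bnip3, chr7:138909594-138909629, minus strand: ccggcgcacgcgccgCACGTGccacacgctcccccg
*Ldha* had the most matches, with 5 of ACGTG and 2 of GCGTG in its upstream promoter. Strands were counted apart, so each CACGTG gives 2 matches of ACGTG at 1 place, and *Ldha* has fewer separate places than matches. The upstream promoter of *Vegfa* had 0 of either form in this stretch, and its second promoter had 1 of each.

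The depth and the makeup of the samples come before the comparison, because WT replicate 1 stood apart. The counts summed to 52142451 in WT replicate 1 and to 99831099, 116815517, and 75284143 in WT replicates 2 to 4. They summed to 118254070, 94972137, and 106517535 in *Trpc1-/-* replicates 1 to 3. A level of 3 counts corresponded to between 0.0254 and 0.0575 CPM, which covers counting error only, and the least abundant of the 10 genes, *Car9*, had 34 to 158 counts per sample. In WT replicate 1, the typical gene lay 0.36 from the median of the other samples on the log2 scale, compared with 0.091 to 0.14 in the other 6 samples. The mitochondrial ribosomal RNA mt-Rnr2 took 19.6% of its counts and 12.3% to 15.4% of theirs. Among the 10 genes, WT replicate 1 was the lowest sample for 5 and the highest for 3, so the differences of the 10 genes and of the ratios are given with and without it. The mouse numbers in the labels are in the 1300s for WT replicates 1 and 2 and all *Trpc1-/-* samples and in the 1700s for WT replicates 3 and 4. No 2 samples held identical values. The closest pair, WT replicates 2 and 3, differed by a median chi-square per gene of 2.22, where counting alone gives 0.455, and each sample was kept as a replicate. As separate pools of animals, the samples carry biological and technical spread together.

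Markers of cell types were summed in CPM for each sample. All 9 chondrocyte markers were detected in every sample, led by *Col2a1*, and their sums were 5580, 5684, 5705, and 5429 CPM in WT replicates 1 to 4 and 3083, 5852, and 3304 CPM in *Trpc1-/-* replicates 1 to 3. *Trpc1-/-* replicate 2 was at the level of WT, and the other 2 *Trpc1-/-* samples were below every WT sample. The 9 erythroid markers, led by the globin gene *Hbb-bs*, summed to 16046, 27506, 30607, and 24577 CPM in WT and to 38992, 35101, and 48285 CPM in *Trpc1-/-* samples, and did not overlap between the groups. The 8 skeletal muscle markers, led by *Myh4*, summed to 1258 CPM in WT replicate 1 and 241, 190, and 64.5 CPM in the other WT samples, compared with 379, 617, and 1058 CPM in *Trpc1-/-* samples, so that the groups overlapped through WT replicate 1 alone. The 7 neutrophil markers, led by *S100a9*, summed to 5213 CPM in WT replicate 1, 13088, 15038, and 16605 CPM in the other WT samples, and 15321, 12231, and 16107 CPM in *Trpc1-/-* samples. Markers of blood-forming cells, bone, and muscle were thus detected in every sample beside those of cartilage. In bulk RNA, fewer cells of a type and less RNA per cell cannot be told apart.

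Of the other lists, the 8 markers of osteoblasts and osteocytes, led by *Col1a1*, had mean sums with SD of 9823 ± 2703 CPM for the 4 WT and 7313 ± 2420 CPM for the 3 *Trpc1-/-* samples. The 4 osteoclast markers, led by *Ctsk*, averaged 494 ± 153 and 473 ± 92.5 CPM, respectively. The 5 macrophage markers, led by *Mrc1*, averaged 492 ± 70.6 and 565 ± 39.9 CPM. The 5 B cell markers, led by *Cd79b*, averaged 151 ± 30.6 and 189 ± 13.1 CPM, and the 5 adipocyte markers, led by *Cfd*, averaged 233 ± 43.8 and 316 ± 36.2 CPM. All 5 of these sums overlapped between the groups. For adipocyte markers the overlap came from WT replicate 1 alone, at 292 CPM, with 187 to 234 CPM in the other WT samples and 282 to 354 CPM in *Trpc1-/-* samples. Of these 5 genes, 1 did not overlap with all samples (13.6% of all genes) and 4 without WT replicate 1 (22.9%), and DESeq2 called 1 (1.79%) and 4 (5.49%), respectively. Of the 5 B cell genes, 3 did not overlap with all samples (13.6%) and 3 without WT replicate 1 (22.9%), all higher in *Trpc1-/-* samples. In edgeR 0 of these 5 had an unadjusted P under 0.05 with all samples (10%) and 3 without WT replicate 1 (16.9%). DESeq2 called 0 of them in both fits (1.79% and 5.49%). Of the 8 osteoblast and osteocyte genes, edgeR called 0 with all samples, where 2 had an unadjusted P under 0.05 (10% of all genes) and DESeq2 called 1 (1.79%). The edgeR calls without WT replicate 1 were 2, *Sost* and *Mepe* (0.32% of all genes), and DESeq2 then called 3 (5.49%). No marker of any list was at 0 in any sample. The *Trpc1* gene itself, whose counts cover the whole gene and not the deleted exon alone, was at 4.83, 4.55, 4.77, and 4.33 CPM in WT and at 3.35, 3.79, and 3.04 CPM in *Trpc1-/-* samples, so that each labeled knockout was below each WT sample.

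Over all 16429 genes, the quasi-likelihood test in edgeR, adjusted by the Benjamini-Hochberg method, called 0 genes (0%) at an adjusted P under 0.05, and 1643 genes (10%) had an unadjusted P under 0.05. DESeq2 called 294 genes (1.79%), and limma-voom called 1. Of the 10 hypoxia genes, none of these tools called any, and 1, *Vegfa*, had an unadjusted P under 0.05 in edgeR, which is the share found among all genes. The levels of *Vegfa* were also the only ones of the 10 that did not overlap between the groups, where 13.6% of all genes did not overlap in either direction and 6.42% had all *Trpc1-/-* samples below all WT samples. The logFC was positive for 4 of the 10 and negative for 6, with a median of −0.055, compared with 51.9% lower and a median of −0.0088 over all genes.

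Without WT replicate 1, 2 of the 10, *Vegfa* and *Slc2a1*, did not overlap between the groups, as did 22.9% of all genes. In edgeR, 3 of the 10, *Hif1a*, *Vegfa*, and *Slc2a1*, then had an unadjusted P under 0.05, as did 16.9% of the genes tested, and all 3 were lower in *Trpc1-/-* samples. After adjustment edgeR called 0 of the 10, and 0.32% of all genes. DESeq2 called 2 of the 10, *Vegfa* and *Slc2a1*, and 5.49% of all genes. The medians of the 10 logFC values were −0.088 without WT replicate 1 and −0.0012 for all genes.

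**Figure D1:**
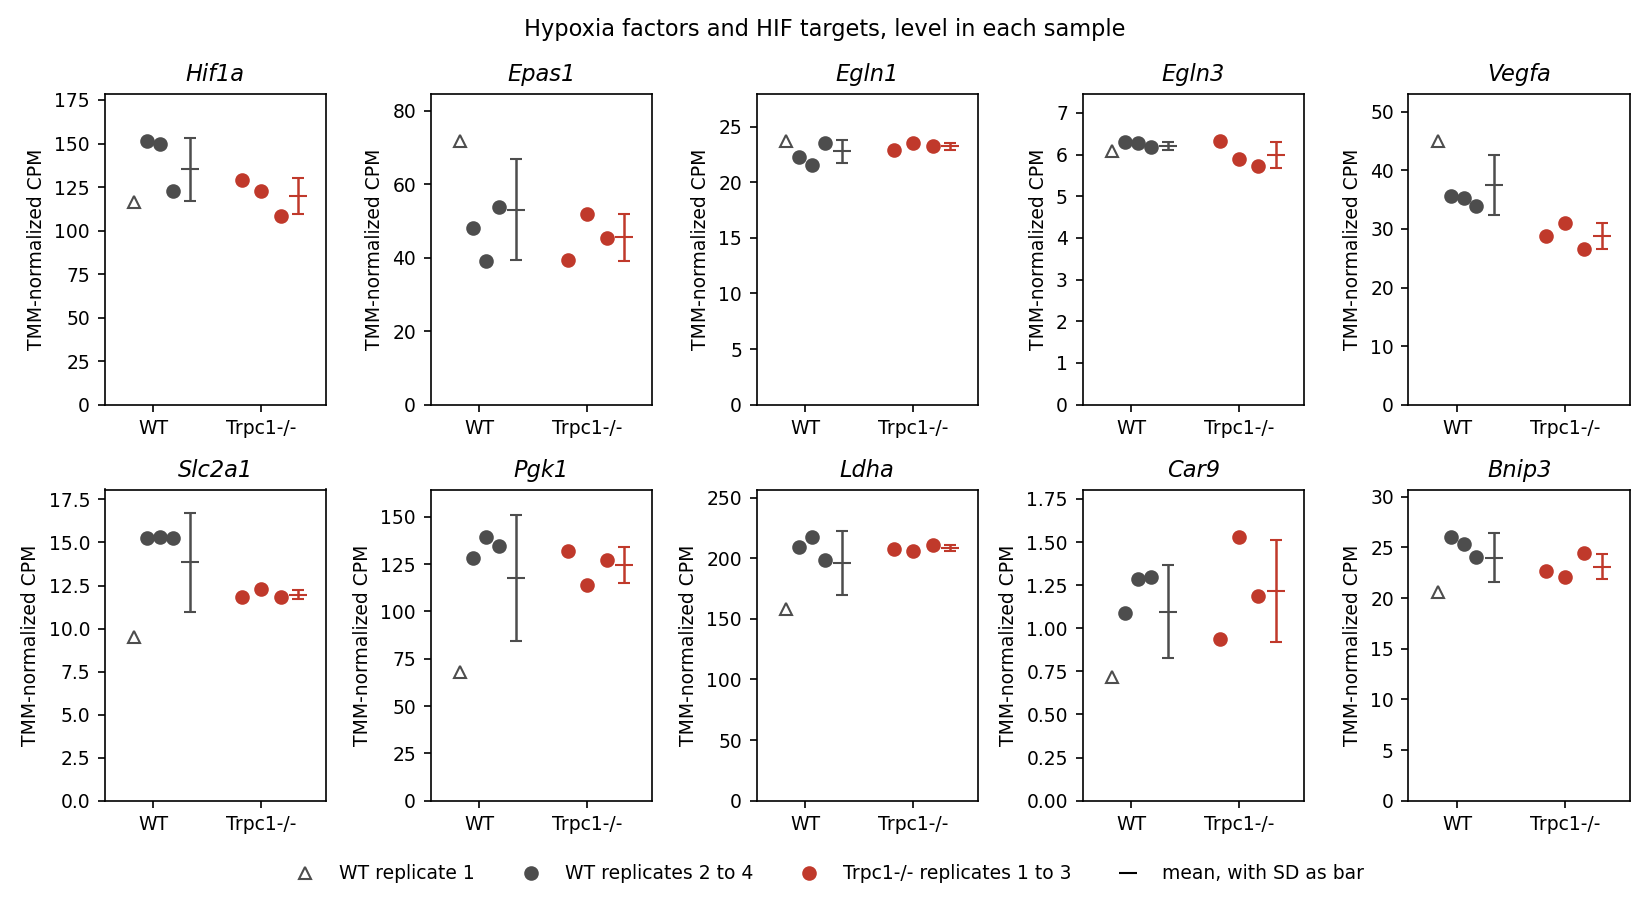
Level of each of the 10 genes in TMM-normalized CPM (vertical axes, linear and starting at 0) in each WT and *Trpc1-/-* sample, with WT replicate 1 as an open triangle and group means with SD (n = 4 and n = 3) as bars beside the points. *Vegfa* in the *Trpc1-/-* samples lies between 26.5 and 30.9 CPM, below all WT samples, and WT replicate 1 is the lowest sample for *Slc2a1*, *Pgk1*, *Ldha*, *Car9*, and *Bnip3* and the highest for *Epas1*, *Egln1*, and *Vegfa*.

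*Hif1a* (ENSMUSG00000021109, chromosome 12, 73901375 to 73947530 of GRCm38) encodes HIF-1alpha, the subunit found in most cells. It was at 116, 151, 149.9, and 123 CPM in WT replicates 1 to 4 and at 129, 123, and 109 CPM in *Trpc1-/-* replicates 1 to 3. The groups overlapped, with WT replicates 2 and 3 highest and *Trpc1-/-* replicate 3 lowest. Means with SD were 135 ± 18.2 CPM for the 4 WT and 120.0 ± 10.4 CPM for the 3 *Trpc1-/-* samples, a logFC of −0.17 (SE 0.12, edgeR adjusted P = 0.628). Without WT replicate 1 the logFC was −0.24, with an edgeR adjusted P of 0.292 (0.217 to 0.975 over 23 alternatives with edgeR, DESeq2, or limma-voom). Other single samples left out gave as little as −0.11, without *Trpc1-/-* replicate 3 or WT replicate 2, and the 1300s mouse numbers alone gave −0.16.

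*Epas1* (ENSMUSG00000024140, chromosome 17, 86753700 to 86833410) encodes HIF-2alpha, which is abundant in endothelial and some mesenchymal cells. It was at 71.8, 47.9, 39.0, and 53.7 CPM in WT and at 39.3, 51.9, and 45.4 CPM in *Trpc1-/-* samples. WT replicate 1 was the highest sample, and the other WT samples spanned the *Trpc1-/-* samples. The logFC was −0.22 (95% confidence interval −0.69 to 0.25; edgeR adjusted P = 0.693) and −0.043 without WT replicate 1. It was −0.12 without *Trpc1-/-* replicate 1, −0.34 without WT replicate 3, and −0.39 within the 1300s mouse numbers. The 6 endothelial markers, led by *Vwf*, summed to 332, 309, 312, and 305 CPM in WT and 287, 306, and 266 CPM in *Trpc1-/-* samples. WT replicate 1 had the highest sum, but not the highest level of most of the 6 genes. It was the highest sample for 2, *Vwf* (160 CPM) and *Egfl7* (33.1 CPM), and the lowest of all 7 samples for 1, *Pecam1* (62.5 CPM). The part of these cells in the level of *Epas1* was not tested.

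Which of the alpha subunits prevails within a sample does not depend on the size of the library, so the ratio of *Epas1* to *Hif1a*, in counts per kilobase of exon, was compared as well. It was 0.651, 0.334, 0.274, and 0.461 in WT and 0.322, 0.447, and 0.441 in *Trpc1-/-* samples. *Hif1a* thus exceeded *Epas1* per length in all 7 samples. The groups overlapped, with a log2 difference of −0.030 (exact permutation test over 35 regroupings of the samples, two-sided, P = 0.886), which turned to 0.20 without WT replicate 1 (P = 0.700 in the same exact test).

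The genes whose pattern over the 7 samples was closest to that of *Hif1a*, by the root mean square difference of log2 CPM centered on each gene's mean, were *Epdr1*, *Ppic*, and *P4ha1* (0.042, 0.047, and 0.048, compared with a median of 0.25 over all genes). For *Epas1* they were *Lman2l*, *Spata1*, and *Ralgapa2* (0.032, 0.042, and 0.044, compared with a median of 0.33). Over the 6 samples without WT replicate 1, none of these genes was among the closest 3, which were *Sec24d*, *Kifc3*, and *Papss1* for *Hif1a* and included *Atxn2l* and *Ccl25* for *Epas1*.

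*Egln1* (ENSMUSG00000031987, chromosome 8, 124908587 to 124949324) encodes PHD2, the main hydroxylase of HIF-alpha in most tissues. Its SD of log2 CPM over the 7 samples, 0.050, was the smallest of the 10 genes, next to 0.054 for *Egln3*. It was at 23.7, 22.3, 21.6, and 23.6 CPM in WT and 22.9, 23.5, and 23.3 CPM in *Trpc1-/-* samples. The groups overlapped, and WT replicate 1 was at the level of WT replicate 4. The logFC was 0.027 (95% confidence interval −0.12 to 0.18; edgeR adjusted P = 0.887), and 0.045 without WT replicate 1. Single samples left out gave 0.0021 to 0.045. The fold of *Trpc1-/-* over WT was thus bounded between 0.920 and 1.13.

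*Egln3* (ENSMUSG00000035105, chromosome 12, 54178981 to 54203860) encodes PHD3, which HIF itself induces. It was at 6.09, 6.30, 6.28, and 6.18 CPM in WT and 6.33, 5.90, and 5.73 CPM in *Trpc1-/-* samples. *Trpc1-/-* replicate 1 was the highest sample and replicates 2 and 3 were below all WT samples. The logFC was −0.054 (95% confidence interval −0.27 to 0.16; edgeR adjusted P = 0.840), or −0.064 without WT replicate 1. Single samples left out gave −0.096 to −0.023. The ratio of *Egln3* to *Egln1* per kilobase was 0.347, 0.381, 0.393, and 0.354 in WT and 0.374, 0.339, and 0.332 in *Trpc1-/-* samples. It overlapped between the groups (log2 difference −0.083, exact permutation test, two-sided, P = 0.257, and −0.11 without WT replicate 1). The difference ranged from −0.13 to −0.049 with single samples left out.

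**Figure D2:**
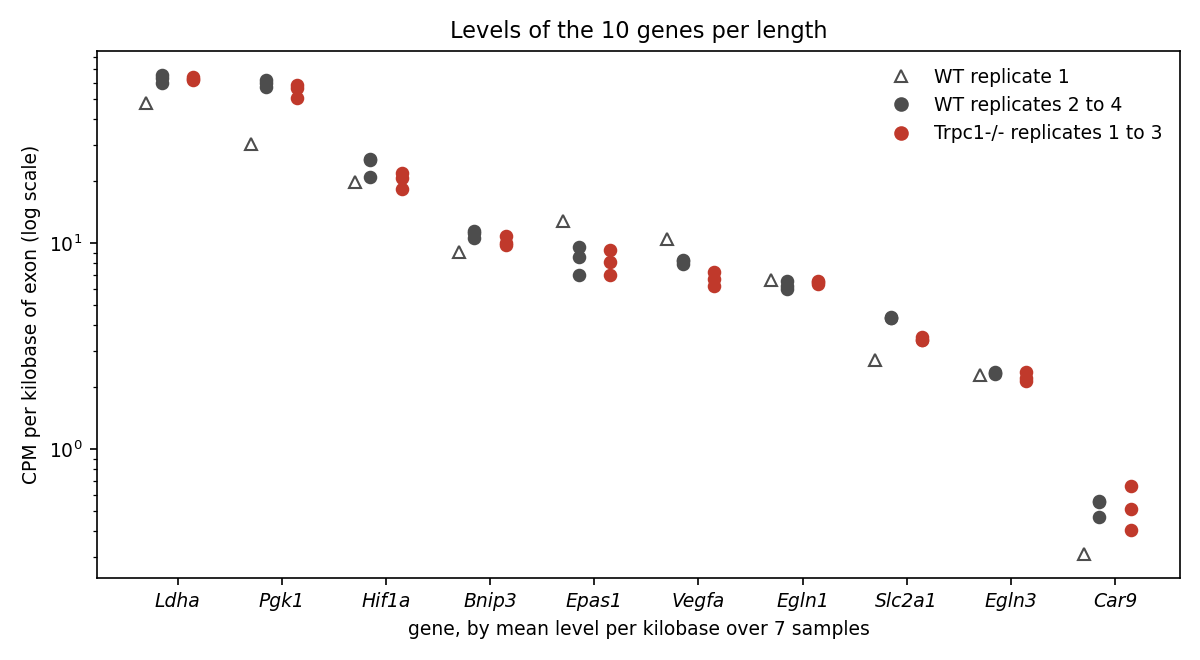
Level of the 10 genes in CPM per kilobase of exon (vertical axis, log scale), ordered by their mean over 7 samples (horizontal axis), with 1 point per sample, WT replicate 1 as an open triangle. *Ldha* and *Pgk1* have medians of 62.7 and 57.1 CPM per kilobase, and *Car9* lies lowest at a median of 0.515.

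The order of the levels was read per length, since long genes collect more counts. *Ldha* had a median of 62.7 CPM per kilobase (range 47.8 to 65.7) and *Pgk1* one of 57.1 (30.3 to 62.1), and their ranges overlapped, with *Ldha* above *Pgk1* in 6 of 7 samples. *Hif1a* followed at 20.8 CPM per kilobase (18.4 to 25.7), below *Pgk1* and above the next gene in all 7 samples. *Bnip3* (median 10.6), *Epas1* (8.58), *Vegfa* (7.90), and *Egln1* (6.48) came next, and each overlapped with the following 1 of these in range, with the order kept in 6 of 7 samples for each pair. *Slc2a1* (3.50), *Egln3* (2.32), and *Car9* (0.515) followed without overlap. Among all tested genes, *Ldha* stood at the 96.8th percentile of mean level per kilobase and *Car9* at the 7.21st.

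All 15 genes for HIF subunits and oxygen sensing passed the filter, and the logFC was positive for 6 and negative for 9 (median −0.053). Of the 15, edgeR called 0, and 1 had an unadjusted P under 0.05 (10% of all genes). This was *Arnt2*, a beta subunit found mainly in nerve cells and kidney, which DESeq2 also called (1.79% of all genes). It was at 4.24, 5.55, 5.49, and 4.64 CPM in WT and 3.22, 2.87, and 3.40 CPM in *Trpc1-/-* samples, all of them below the lowest WT sample. Its logFC was −0.66 (SE 0.15; adjusted P = 0.395 by edgeR and 0.00565 by DESeq2). DESeq2 with 1 sample left out called it without WT replicate 1 or 4 alone, and its adjusted P in DESeq2 ranged from 0.000114 to 0.130 over these fits, with a logFC of −0.73 without WT replicate 1. *Arnt*, the usual partner, had a logFC of −0.091 (0.027 without WT replicate 1), and *Vhl* had one of −0.011 (−0.11 without that sample). *Elob*, which joins VHL in its ubiquitin ligase, had both the highest logFC of the list apart from the 4 members (0.28, edgeR adjusted P = 0.639) and the highest level, 31.6 CPM per kilobase. Without WT replicate 1, the lowest sample, the logFC of *Elob* was 0.12.

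*Vegfa* (ENSMUSG00000023951, chromosome 17, 46016993 to 46032369) encodes the chief growth factor of blood vessels, which hypertrophic chondrocytes also secrete. It was at 45.02, 35.7, 35.2, and 33.9 CPM in WT replicates 1 to 4 and at 28.8, 30.9, and 26.5 CPM in *Trpc1-/-* replicates 1 to 3. All 3 *Trpc1-/-* samples were below all 4 WT samples, and WT replicate 1 was the highest. Means with SD were 37.4 ± 5.11 CPM for the 4 WT and 28.8 ± 2.20 CPM for the 3 *Trpc1-/-* samples, a fold of 0.768 (95% confidence interval 0.639 to 0.924). The logFC was −0.38 (SE 0.11), and edgeR gave an unadjusted P of 0.0112, which became 0.408 when adjusted, while DESeq2 gave an adjusted P of 0.129. The difference thus did not pass the correction for 16429 genes.

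Without WT replicate 1, *Vegfa* had a logFC of −0.28, and adjusted P values were 0.139 by edgeR and 0.0258 by DESeq2, the only 1 of 8 DESeq2 fits that called it. Over the 23 other fits the adjusted P of edgeR, DESeq2, and limma-voom ranged from 0.0258 to 0.932. Leaving out single samples gave logFC values between −0.44 and −0.28. Within the 1300s mouse numbers the logFC of *Vegfa* was −0.49. The sum of chondrocyte markers was lower in 2 of the 3 *Trpc1-/-* samples, and 9 of 9 markers had a negative logFC (median −0.42). Of these 9, 1 did not overlap with all samples (13.6% of all genes) and 5 without WT replicate 1 (22.9%), where DESeq2 called 4 (5.49%). All 6 endothelial markers had a negative logFC (median −0.17). The part of either cell type in the level of *Vegfa* was not tested.

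Among 11 genes of angiogenic signaling, the logFC was positive for 3 and negative for 8 (median −0.16). By edgeR, 3 had an unadjusted P under 0.05, all of them lower in *Trpc1-/-* samples and without overlap between the groups, compared with 10% and 13.6% of all genes. Neither edgeR nor DESeq2 called any of the 11 with all samples. Beside *Vegfa*, these were *Pgf*, a further ligand of the VEGF family, and *Angpt2*, which loosens vessel walls by blocking the receptor TIE2. *Pgf* was at 4.72, 4.35, 3.99, and 4.85 CPM in WT and 3.15, 3.86, and 3.33 CPM in *Trpc1-/-* samples (logFC −0.38, SE 0.14, edgeR adjusted P = 0.455). *Angpt2* was at 5.71, 6.73, 6.02, and 6.08 CPM in WT and 4.61, 5.30, and 4.67 CPM in *Trpc1-/-* samples (logFC −0.34, SE 0.11, edgeR adjusted P = 0.433). In both genes no *Trpc1-/-* sample reached the lowest WT sample, and the logFC without WT replicate 1 was −0.35 for *Pgf* and −0.37 for *Angpt2*. Without that sample, 5 of the 11 genes did not overlap (22.9% of all genes), all lower in *Trpc1-/-* samples. Then 4 had an unadjusted P under 0.05 in edgeR (16.9%), which called 0 (0.32%), and DESeq2 called 1, *Vegfa* (5.49%).

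*Vegfb* had the highest logFC of the list (0.14, and 0.22 without WT replicate 1). The vessel-widening peptide *Adm* had the lowest (−0.46, SE 0.27), with 0.991 CPM in WT replicate 1, 1.72 to 1.85 CPM in the other WT samples, and 0.883 to 1.37 CPM in *Trpc1-/-* samples. Its logFC was −0.63 without WT replicate 1, and the groups then did not overlap. The VEGF receptors *Kdr* and *Flt1* had logFC values of 0.020 and −0.16 (0.019 and −0.073 without WT replicate 1) and overlapped between the groups. *Nrp2*, a coreceptor and the most abundant of the list per length, had a logFC of −0.30 (−0.23 without WT replicate 1). It was lowest in *Trpc1-/-* replicates 1 and 3, the samples with the lowest sums of chondrocyte markers. The part of chondrocytes in the level of *Nrp2* was not tested.

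**Figure D3:**
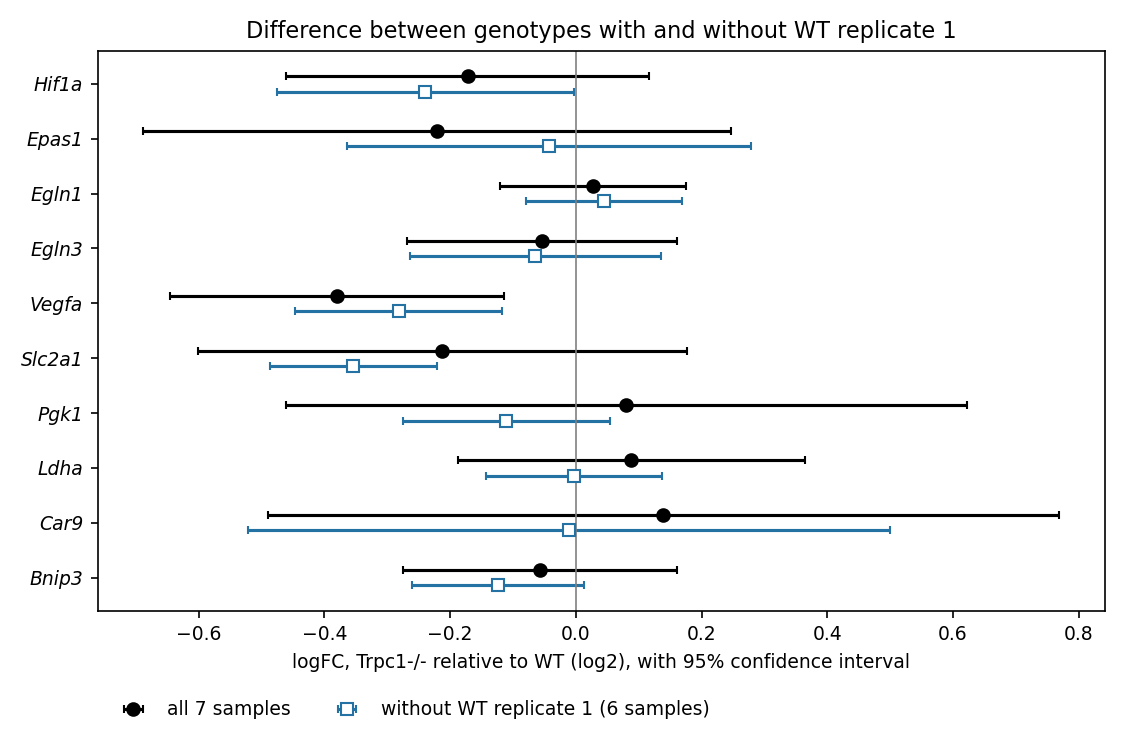
LogFC of the 10 genes between *Trpc1-/-* and WT samples with 95% confidence intervals from edgeR (horizontal axis, log2), with all 7 samples (filled circles) and without WT replicate 1 (open squares). The interval of *Vegfa* lies below 0 in both, that of *Slc2a1* runs from −0.60 to 0.18 with all samples and from −0.49 to −0.22 without WT replicate 1.

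*Slc2a1* (ENSMUSG00000028645, chromosome 4, 119108711 to 119137983) encodes GLUT1, the glucose carrier of chondrocytes and red cell precursors. It was at 9.53, 15.3, 15.3, and 15.3 CPM in WT and at 11.8, 12.3, and 11.8 CPM in *Trpc1-/-* samples. WT replicates 2 to 4 were nearly equal and above all *Trpc1-/-* samples, and WT replicate 1 was below all of them. With all samples the logFC was −0.21 (SE 0.17, edgeR adjusted P = 0.654). Without WT replicate 1 it was −0.35 (SE 0.057), with adjusted P values of 0.0688 by edgeR and 0.000617 by DESeq2. DESeq2 called *Slc2a1* in this 1 of 8 fits, and over its 23 other fits the adjusted P of edgeR, DESeq2, and limma-voom ranged from 0.000617 to 0.996. Within the mouse numbers of the 1300s alone, where WT is replicates 1 and 2, the logFC was −0.057. The overlap of the groups and the DESeq2 call of *Slc2a1* thus depended on WT replicate 1.

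*Pgk1* (ENSMUSG00000062070, chromosome X, 106187100 to 106203699) encodes phosphoglycerate kinase, an enzyme of glycolysis that yields ATP. It was at 68.1, 128, 139, and 135 CPM in WT and at 132, 114, and 127 CPM in *Trpc1-/-* samples. WT replicate 1 was the lowest sample by far, and the other WT samples overlapped with the *Trpc1-/-* samples. The logFC was 0.080 (95% confidence interval −0.46 to 0.62; edgeR adjusted P = 0.911) and changed sign to −0.11 without WT replicate 1, while it was 0.34 within the 1300s mouse numbers. The pseudogene Pgk1-rs7 held between 6.41% and 7.83% as many counts as *Pgk1* in each sample, so reads could be split between them.

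*Ldha* (ENSMUSG00000063229, chromosome 7, 46841475 to 46855627) encodes the subunit of lactate dehydrogenase that favors lactate production. It was at 158, 209, 217, and 199 CPM in WT and at 208, 206, and 211 CPM in *Trpc1-/-* samples. The *Trpc1-/-* samples were nearly equal and inside the span of WT replicates 2 to 4, and WT replicate 1 was again the lowest. The logFC was 0.088 (95% confidence interval −0.19 to 0.36; edgeR adjusted P = 0.791) and −0.0031 without WT replicate 1, and it was 0.18 within the 1300s mouse numbers. The pseudogenes of *Ldha* held at most 0.217% as many counts.

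The ratio of *Ldha* to *Ldhb*, the subunit that prevails in heart and favors use of lactate, set both subunits against each other within a sample. Per kilobase it was 11.3, 11.7, 10.9, and 10.4 in WT and 12.3, 12.4, and 14.5 in *Trpc1-/-* samples. All 3 *Trpc1-/-* samples were above all WT samples, and WT replicate 1 was inside the range of its group. The log2 difference was 0.23 (P = 0.0286 by a two-sided exact permutation test, the smallest of 35 regroupings, and 0.0571 when adjusted over the 4 ratios examined). It was 0.24 without WT replicate 1, where the smallest P of the exact test is 0.100. *Ldhb* alone had a logFC of −0.14 (SE 0.14, edgeR adjusted P = 0.704), or −0.24 without WT replicate 1.

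**Figure D4:**
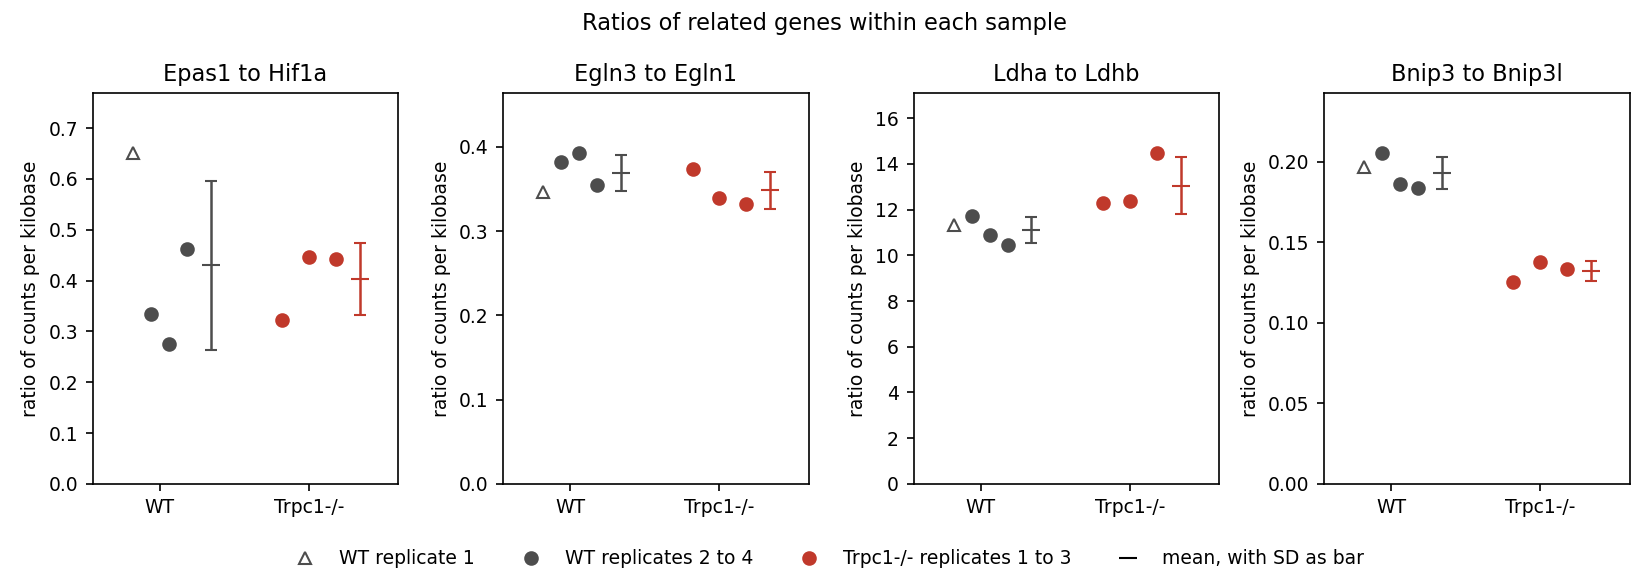
Ratios of counts per kilobase of exon (vertical axes, linear and starting at 0) for 4 pairs of related genes in each WT and *Trpc1-/-* sample, with WT replicate 1 as an open triangle and group means with SD (n = 4 and n = 3) as bars. The ratio of *Bnip3* to *Bnip3l* lies between 0.184 and 0.206 in WT and between 0.125 and 0.138 in *Trpc1-/-* samples, and the ratio of *Ldha* to *Ldhb* does not overlap either.

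Across glucose uptake and glycolysis, all 21 genes passed the filter, and the logFC was positive for 11 and negative for 10 (median 0.00095). Neither edgeR nor DESeq2 called any of them with all samples. In that comparison 1 of the 21 did not overlap between the groups (13.6% of all genes), and it was higher in *Trpc1-/-* samples. WT replicate 1 was the lowest of all 7 samples for 16 of the 21, or 76.2%, compared with 38.0% of all genes. Without it the median logFC was −0.11, and 8 of the 21 did not overlap between the groups, 6 of them lower in *Trpc1-/-* samples, compared with 22.9% of all genes. Then 6 of the 21 had an unadjusted P under 0.05 in edgeR (16.9% of all genes), which called 0, and DESeq2 called 3 (5.49% of all genes), *Slc2a1*, *Pfkp*, and *Pfkm*. With all samples, *Pfkp*, the platelet type of phosphofructokinase, was the 1 gene with an unadjusted P under 0.05 (10% of all genes). It had the lowest logFC apart from the members (−0.23, SE 0.092, edgeR adjusted P = 0.482), or −0.27 without WT replicate 1. It was at 54.0, 62.4, 63.1, and 59.8 CPM in WT and 56.8, 49.4, and 47.4 CPM in *Trpc1-/-* samples. *Pfkm*, the muscle type of the same enzyme, had the highest logFC (0.22, SE 0.29) and was at 53.3 CPM in WT replicate 1, the sample with the most skeletal muscle markers, and at 21.2 to 29.6 CPM in the other WT samples, compared with 34.3, 35.8, and 44.8 CPM in *Trpc1-/-* samples. Its logFC was 0.55 without WT replicate 1, and the groups then did not overlap. The part of muscle in the level of *Pfkm* was not tested. *Aldoa*, the most abundant of the list at 96.2 CPM per kilobase, had a logFC of 0.11 (0.040 without WT replicate 1). More than 1 gene carries its name, and the most abundant of these was taken.

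*Car9* (ENSMUSG00000028463, chromosome 4, 43506966 to 43513729) encodes a carbonic anhydrase of the cell surface and is among the targets most tightly bound to HIF-1. It was near the filter, at 0.717, 1.09, 1.29, and 1.30 CPM in WT and 0.939, 1.53, and 1.19 CPM in *Trpc1-/-* samples. The groups overlapped, with WT replicate 1 lowest and *Trpc1-/-* replicate 2 highest. The logFC was 0.14 with a wide 95% confidence interval of −0.49 to 0.77 (edgeR adjusted P = 0.860), and it was −0.011 without WT replicate 1 and −0.063 without *Trpc1-/-* replicate 2. Within the 1300s mouse numbers it was 0.41. An antisense gene, Gm12454, overlaps *Car9* and had up to 178 counts in a sample, and the authors' alignment used strand.

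Among 4 genes of pH regulation, the logFC was positive for *Car9* and negative for 3 (median −0.14, or −0.017 without WT replicate 1). With all samples neither edgeR nor DESeq2 called any, and 1 had an unadjusted P under 0.05 (10% of all genes). *Car12*, a related anhydrase, was at 15.8, 17.7, 18.9, and 22.7 CPM in WT and at 9.47, 16.2, and 13.1 CPM in *Trpc1-/-* samples, where replicate 2 reached into the range of WT. It had the lowest logFC of the list, −0.54 (SE 0.19, unadjusted P = 0.0249, edgeR adjusted P = 0.455), and −0.62 without WT replicate 1. It ranged from −0.74 to −0.36 with single samples left out, the smallest difference without *Trpc1-/-* replicate 1, and was −0.38 within the 1300s mouse numbers. DESeq2 called *Car12* in 2 of 8 fits, and its adjusted P in DESeq2 was 0.0246 without WT replicate 1 (0.0246 to 0.932 over 23 alternatives with edgeR, DESeq2, or limma-voom). *Trpc1-/-* replicates 1 and 3, with the lowest sums of chondrocyte markers, were also lowest for *Car12*. Among the WT samples, replicate 4 had the lowest sum, 5429 CPM, and the highest level of *Car12*. The part of chondrocytes was not tested. The bicarbonate carrier *Slc4a7* had the highest logFC apart from *Car9* (−0.062, and 0.0036 without WT replicate 1).

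*Bnip3* (ENSMUSG00000078566, chromosome 7, 138890836 to 138909519) encodes a receptor that marks mitochondria for autophagy. It was at 20.6, 26.0, 25.3, and 24.0 CPM in WT and at 22.7, 22.1, and 24.5 CPM in *Trpc1-/-* samples. The groups overlapped, with WT replicate 1 lowest. The logFC was −0.057 (95% confidence interval −0.28 to 0.16; edgeR adjusted P = 0.835) and −0.12 without WT replicate 1. It was −0.016 without WT replicate 2 and −0.018 within the 1300s mouse numbers.

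Its paralog *Bnip3l*, also called NIX, which clears mitochondria from maturing red cells, had a logFC of the other sign. *Bnip3l* (ENSMUSG00000022051, chromosome 14, 66985239 to 67008877) was at 179, 216, 231, and 222 CPM in WT and 308, 273, and 312 CPM in *Trpc1-/-* samples. All *Trpc1-/-* samples were above all WT samples, with a logFC of 0.49 (SE 0.11; adjusted P = 0.395 by edgeR and 0.00407 by DESeq2) and of 0.41 without WT replicate 1. DESeq2 called it in 5 of 8 fits, and the adjusted P in DESeq2 was 0.0675 without WT replicate 2, 0.127 without *Trpc1-/-* replicate 1, and 0.191 without *Trpc1-/-* replicate 3. The pseudogene Bnip3l-ps held between 6.00% and 7.05% as many counts as *Bnip3l* in each sample, and reads could be split between them.

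The ratio of *Bnip3* to *Bnip3l* per kilobase was 0.197, 0.206, 0.186, and 0.184 in WT and 0.125, 0.138, and 0.134 in *Trpc1-/-* samples. The groups did not overlap, and WT replicate 1 was inside the range of the other WT samples, unlike in most of the single genes. The log2 difference was −0.55 (P = 0.0286 by a two-sided exact permutation test, the smallest of 35 regroupings, and 0.0571 when adjusted over the 4 ratios), and it was −0.54 without WT replicate 1 (exact permutation test, P = 0.100, again the smallest possible). Erythroid markers were higher in the same samples: all 9 had a positive logFC (median 0.55), 8 had an unadjusted P under 0.05 (10% of all genes), edgeR called 0, and DESeq2 called 3 (1.79% of all genes). Without WT replicate 1, the lowest sample for 7 of the 9, DESeq2 called 8 (5.49% of all genes). The part of red cell precursors in *Bnip3l* and in this ratio was not tested. The logFC was −0.057 for *Bnip3* and 0.49 for *Bnip3l*, so the ratio mostly restated the difference of *Bnip3l*. The paper lists *Bnip3l* among its differentially expressed genes from the same data. The P of the ratio is therefore no separate evidence, and the adjustment over 4 ratios does not account for this.

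In the mitophagy list as a whole, 4 of 5 genes had a positive logFC (median 0.15), 2 had an unadjusted P under 0.05 (10% of all genes), edgeR called 0, and DESeq2 called *Bnip3l* (1.79% of all genes). The second was *Pink1*, a kinase that senses damaged mitochondria, at 55.0, 62.3, 68.2, and 67.7 CPM in WT and 79.2, 72.5, and 71.4 CPM in *Trpc1-/-* samples. It did not overlap between the groups (logFC 0.23, SE 0.095, edgeR adjusted P = 0.484, and logFC 0.17 without WT replicate 1). Without that sample, 3 of the 5 genes had an unadjusted P under 0.05 (16.9% of all genes) and 3 did not overlap (22.9%). Then edgeR called 0 (0.32%) and DESeq2 called 2 (5.49%).

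**Figure D5:**
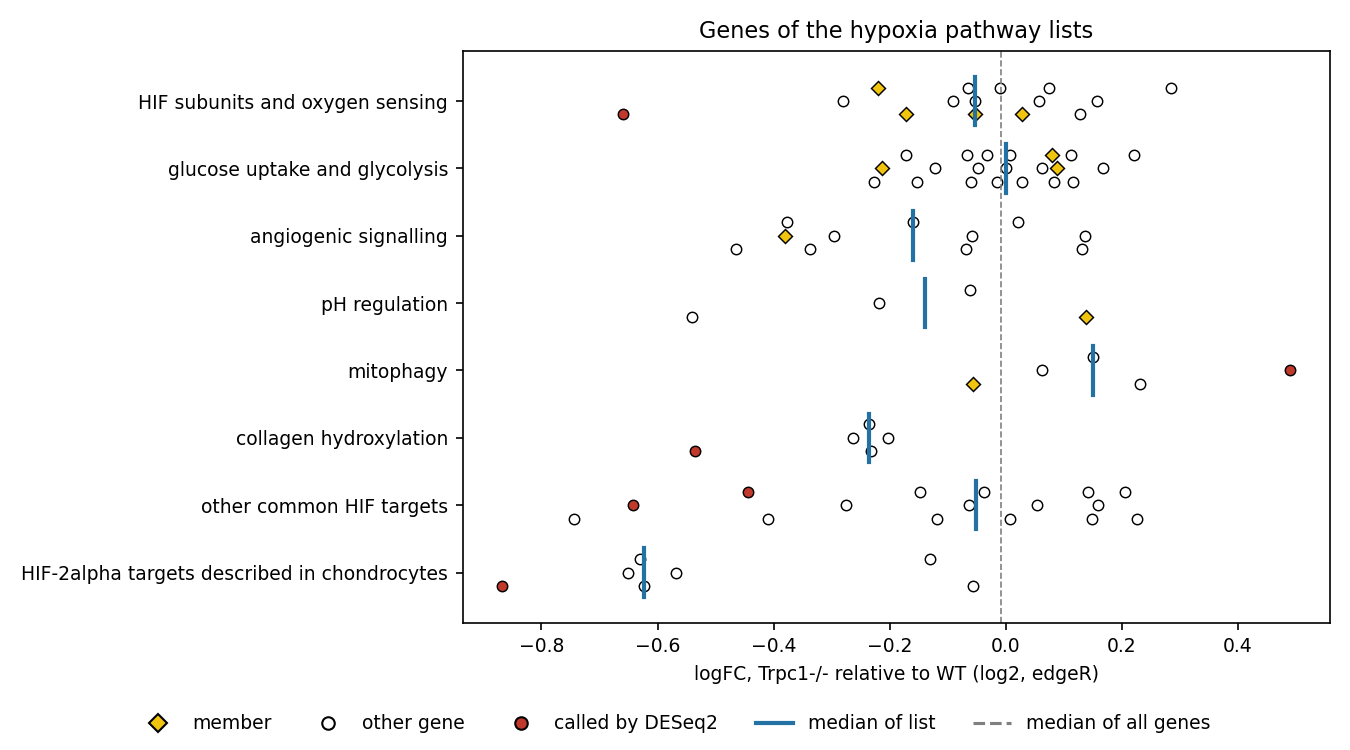
LogFC between *Trpc1-/-* and WT samples from edgeR (horizontal axis, log2) of each tested gene in the 8 hypoxia lists (vertical axis), with the 10 genes described here as yellow diamonds, genes called by DESeq2 in red, list medians as blue bars, and the median of all genes, −0.0088, as a dashed line. The medians run from −0.62 for the HIF-2alpha targets described in chondrocytes to 0.15 for mitophagy. Of the 84 tested genes, DESeq2 called 6 (1.79% of all genes) and edgeR 0 (0%). Without WT replicate 1, DESeq2 called 15 (5.49%) and edgeR 0 (0.32%).

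Enzymes that hydroxylate collagen are HIF targets that allow secretion of folded collagen under low oxygen. All 5 in the list had a negative logFC (median −0.24), and 2 had an unadjusted P under 0.05 (10% of all genes). Of the 5, edgeR called 0, and DESeq2 called *P4ha2* (1.79% of all genes). *P4ha2*, a catalytic subunit of prolyl 4-hydroxylase, was at 26.2, 25.1, 26.5, and 21.3 CPM in WT and at 17.5, 18.8, and 15.01 CPM in *Trpc1-/-* samples, without overlap. Its logFC was −0.54 (SE 0.11; adjusted P = 0.381 by edgeR and 0.00712 by DESeq2), and −0.51 without WT replicate 1. DESeq2 called it in 4 of 8 fits, and not without WT replicate 2 or 3 or *Trpc1-/-* replicate 1 or 3, where its adjusted P in DESeq2 reached 0.219.

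The lysyl hydroxylase *Plod1* overlapped between the groups (logFC −0.24, SE 0.100, unadjusted P = 0.0465, edgeR adjusted P = 0.497, and logFC −0.20 without WT replicate 1), and DESeq2 called it in 1 of 8 fits, without WT replicate 4. *Plod2*, the most abundant of the list per length, had a logFC of −0.26 (−0.29 without WT replicate 1), and *P4ha1* had the highest at −0.20 (−0.27 without that sample). The pattern of *P4ha1* was among the 3 closest to *Hif1a* with all 7 samples, but not without WT replicate 1. Markers of chondrocytes (9 of 9) and of osteoblasts and osteocytes (8 of 8, median −0.31), cells that make collagen, also had a negative logFC, although both marker sums overlapped between the groups. The part of these cells was not tested.

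Among 17 other common HIF targets, 16 passed the filter. *Epo*, the hormone of red cell formation, did not, with 0 counts in 5 samples and 1 count in each of *Trpc1-/-* replicates 2 and 3. For the 16, the logFC was positive in 7 and negative in 9 (median −0.051), and 4 had an unadjusted P under 0.05, all of them lower. These 4 were *Ddit4*, *Bhlhe40*, *Stc2*, and *Ak4*. Beside them, *Ndrg1*, which was lower in *Trpc1-/-* samples (logFC −0.15), and *Cxcl12*, which was higher (logFC 0.20), did not overlap between the groups, which makes 6 of the 16. By edgeR 0 of the 16 were called, and DESeq2 called *Stc2* and *Ak4*. Over all genes, 13.6% did not overlap, 10% had an unadjusted P under 0.05, and DESeq2 called 1.79%.

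*Ddit4* encodes REDD1, which holds back mTOR signaling under stress, and had the lowest logFC of the list. It was at 31.6, 19.997, 17.8, and 18.6 CPM in WT and 15.2, 13.4, and 10.7 CPM in *Trpc1-/-* samples, with WT replicate 1 highest (logFC −0.74, SE 0.22, edgeR adjusted P = 0.408, and logFC −0.52 without WT replicate 1), and DESeq2 called it in 1 of 8 fits, without WT replicate 1. *Stc2*, a secreted stanniocalcin, was at 10.3, 6.78, 7.42, and 8.66 CPM in WT and 5.98, 4.73, and 5.18 CPM in *Trpc1-/-* samples (logFC −0.64, SE 0.17, adjusted P = 0.395 by edgeR and 0.0423 by DESeq2). *Ak4*, a mitochondrial adenylate kinase, was at 7.80, 8.98, 9.43, and 8.87 CPM in WT and 6.97, 6.50, and 5.88 CPM in *Trpc1-/-* samples (logFC −0.44, SE 0.11, adjusted P = 0.395 by edgeR and 0.0203 by DESeq2). In all 3 genes each *Trpc1-/-* sample lay below each WT sample.

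DESeq2 called *Stc2* in 2 of 8 fits, with all samples and without WT replicate 1, and its adjusted P in DESeq2 reached 0.469 without *Trpc1-/-* replicate 3. It called *Ak4* in 3 of 8 fits, with all samples and without WT replicate 1 or *Trpc1-/-* replicate 1, and the adjusted P in DESeq2 reached 0.428. The logFC without WT replicate 1 was −0.52 for *Stc2* and −0.50 for *Ak4*. The transcriptional repressor *Bhlhe40* had a logFC of −0.27 with and without that sample (edgeR adjusted P = 0.409), and DESeq2 called it in 1 of 8 fits, without WT replicate 4. *Mif*, a cytokine, had the highest logFC (0.23, SE 0.26), which was 0.021 without WT replicate 1, its lowest sample at 11.8 CPM. *Tfrc*, the transferrin receptor and the most abundant of the list per length, had a logFC of 0.14 (0.11 without that sample).

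The last list holds genes described as targets of HIF-2alpha in chondrocytes, and 7 of its 8 genes passed the filter. *Nos2* did not, at 0.491 to 1.15 CPM. All 7 had a negative logFC, with a median of −0.62, or −0.76 without WT replicate 1. Only *Adamts4*, an aggrecan-cleaving enzyme, had an unadjusted P under 0.05 in edgeR with all samples (10% of all genes). When WT replicate 1 was left out, 4 of the 7 had one (16.9% of all genes), and the same 4 did not overlap between the groups (22.9% of all genes), all of them lower in *Trpc1-/-* samples. These were *Adamts4*, *Ptgs2*, *Col10a1*, and *Ihh*, of which edgeR called 0 and DESeq2 all but *Col10a1* (5.49% of all genes). *Adamts4* was at 4.72, 4.68, 4.76, and 4.92 CPM in WT and 2.80, 2.82, and 2.22 CPM in *Trpc1-/-* samples. The WT samples were nearly equal, and the *Trpc1-/-* samples were below all of them, with an edgeR adjusted P of 0.334, while DESeq2 called it in 8 of 8 fits, at an adjusted P between 8.74e-07 and 0.00104.

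The collagen of hypertrophic cartilage, *Col10a1*, was the most abundant of these per length and overlapped between the groups (337, 578, 636, and 1070 CPM in WT and 349, 546, and 357 CPM in *Trpc1-/-* samples). Its logFC was −0.65 (SE 0.37, edgeR adjusted P = 0.557) and −0.87 without WT replicate 1. The collagenase *Mmp13* had the highest logFC, −0.056 (−0.070 without WT replicate 1). *Epas1* itself had a logFC of −0.22, or −0.043 without WT replicate 1, and no test linked its level to those of the list. *Trpc1-/-* replicates 1 and 3, with the lowest sums of chondrocyte markers, had less *Col10a1* than *Trpc1-/-* replicate 2. The WT samples did not follow this order. WT replicate 4 had the lowest WT sum, 5429 CPM, and the most *Col10a1*, 1070 CPM. WT replicate 1 had a sum of 5580 CPM and the least *Col10a1*, 337 CPM. The part of chondrocytes was not tested.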

How the data were processed

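RNA-Seq was carried out on 7 pooled knee samples. The authors depleted ribosomal RNA, trimmed reads with Cutadapt 2.5, aligned them by strand to GRCm38 with HISAT2 2.1.0, and deposited estimated counts per gene made from StringTie 2.0.3 coverage. These expected counts were whole numbers, so rounding changed none, and were not normalized. Reads shared with pseudogenes or paralogs were assigned before this point.

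Genes above 1 CPM in at least 2 samples (16429 of 55401) were normalized by TMM and compared by genotype alone in edgeR 4.0.16 (quasi-likelihood test, R 4.3.3), with Benjamini-Hochberg adjustment over all tested genes. DESeq2 1.42.0, limma-voom (limma 3.58.1), 2 other normalizations, 2 other filters, the replicate block, the mouse numbers, and each sample left out were tried. Exon lengths came from GENCODE M21. Ratios of counts per kilobase were compared by exact permutation. Named genes were all members, *Trpc1*, *Ldhb*, *Bnip3l*, the 3 genes closest in pattern to *Hif1a* and *Epas1*, and from each of 8 pathway lists those with an unadjusted P under 0.05, a DESeq2 call, or an extreme logFC or level, and from each of 10 marker lists the most abundant. *Arnt*, *Vhl*, *Kdr*, *Flt1*, *Ndrg1*, *Cxcl12*, *Ptgs2*, *Ihh*, *Sost*, *Mepe*, and the filtered *Epo* and *Nos2* were added after their values were seen. The members and lists were chosen with earlier results of these data known. The edgeR and DESeq2 fits and the exact test were tested on simulated data, and no outcome of that step is given or used here.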

Additional observations from a re-analysis of the deposited data

Results flagged for a closer look

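In WT, the group of 4, each member, ratio, and marker sum was examined for a sample far from the other 3, by its gap to the nearest sample over the range of the group. Of 24 quantities, 5 were beyond the 95% limit for 4 samples, and chance flags about 1 in 20 groups. In all 5 the sample was WT replicate 1. It was the lowest for *Slc2a1* (9.53 CPM, a gap of 0.989 of the range), *Pgk1* (68.1 CPM, a gap of 0.843 of the range), and the macrophage marker sum (387 CPM, a gap of 0.876 of the range). It was the highest for *Vegfa* (45.02 CPM, a gap of 0.840 of the range) and the skeletal muscle marker sum (1258 CPM, a gap of 0.852 of the range). The quantities come from the same library and are not independent. Groups of 3 were not examined.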

How the results depend on the processing

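The count of genes called, 0 in edgeR's quasi-likelihood test, was 294 in DESeq2, 1 in limma-voom, and 0 to 52 with each sample left out, where only leaving out WT replicate 1 gave 52. DESeq2 gave 37 genes without *Trpc1-/-* replicate 3 and 892 without WT replicate 1, the extremes, and 62 without WT replicate 2, 134 without WT replicate 3, and 84 without *Trpc1-/-* replicate 1. DESeq2 called 0 to 2 of the 10 members with a sample left out, and 1 to 3 had an unadjusted P under 0.05 in edgeR, the higher numbers without WT replicate 1.

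Of 160 logFC values of the members under 16 alternatives, 156 kept their sign. The exceptions were *Pgk1* (−0.11), *Ldha* (−0.0031), and *Car9* (−0.011) without WT replicate 1, and *Car9* (−0.063) without *Trpc1-/-* replicate 2. With a sample left out, *Pgk1* ranged from −0.11 to 0.17, *Ldha* from −0.0031 to 0.14, and *Car9* from −0.063 to 0.30. Among the 1300s mouse numbers they were 0.34, 0.18, and 0.41, and *Epas1* was −0.39; the cause was not tested. All 240 values of the 15 other genes with an unadjusted P under 0.05 (*Trpc1* among them) kept theirs. Apart from *Trpc1*, these genes were named for that P in the same samples. The choice favored a kept sign, which therefore says little about stability. Scaling moved the median logFC of all genes no further than −0.021.

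The log2 difference of the ratio of *Epas1* to *Hif1a* changed sign with the replicate block (0.030) and ranged from −0.22 to 0.20 with a sample left out. The replicate block gave the values found without WT replicate 4, which it leaves out; the cause of the other changes was not tested. The difference for *Egln3* to *Egln1* was −0.10 with the replicate block, −0.065 among the 1300s mouse numbers, and −0.13 to −0.049 with a sample left out. That of *Ldha* to *Ldhb* was 0.20 with the replicate block, 0.17 among the 1300s mouse numbers, and 0.15 to 0.27 with a sample left out. That of *Bnip3* to *Bnip3l* was −0.57, −0.61, and −0.58 to −0.51. These kept their direction, and fewer samples cannot reach a P under 0.05 in the exact test, so their P says nothing about stability.

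The labels number replicates 1 to 3 in both groups. Same-numbered samples did not deviate together (correlations across genes of −0.35, −0.20, and −0.044). Pairs with unlike numbers ran from −0.33 to 0.36. So few pairs cannot exclude a step of handling shared by same-numbered samples. With the replicate block, edgeR called 0 genes.

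Pools of 2 to 3 mice, 3 or 4 samples a group, mixed tissue, and 1 WT sample at the lowest depth limit these results. WT replicates 3 and 4 alone carry mouse numbers in the 1700s, so number series and genotype overlap in part. Counts of *Car9*, 34 to 158 per sample, limit its precision.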
